A study of Macaca mulatta with 12 samples.

Results

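The genes described here are TET2 and 9 genes tied to it by pathway or by their place among the genes mutated in clonal hematopoiesis, which are TET3, DNMT3A, DNMT1, UHRF1, ASXL1, CBL, IDH1, IDH2 and JAK2. They were chosen by name, but with earlier results of these data known, as were the lists of related genes below. Counts of called members or list genes beside the share of all genes therefore describe them and are no test. All 10 members were found in the table of 32386 genes and kept by the filter on low counts, which left 11826 genes. TET2 and TET3 stand in the table under their symbols, and the other members stand under Ensembl identifiers that a macaque name table pairs with the symbols. RNA was measured in macrophages sorted from rhesus macaque (Macaca mulatta) blood as cells with CD14 and CD163 and without CD16. All 4 groups share the same history, since CD34+ blood-forming cells were mobilized, exposed to CRISPR/Cas9 and given back to the animal they came from, and the series title calls the resulting hematopoiesis TET2-mutant. The groups are Early CTL (4.5 months after transplant, 8 h in culture without stimulus), Early ACT (4.5 months, 8 h with 2 agents), Late CTL (19 months, without stimulus) and Late ACT (19 months, with both agents), with 3 libraries each. The agents were lipopolysaccharide (LPS, a bacterial cell wall component) at 100 ng/ml and the cytokine interferon-gamma at 20 ng/ml, and one label field lists only the first of them. The labels give no unedited group, no share of cells that carry an edit, no number or age of animals and no statement that replicates are separate animals, so the p-values rest on differences among libraries that may come from technical handling alone.

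Cytosine methylation in DNA is written by DNMT3A on unmethylated sites and copied after replication by DNMT1, which UHRF1 guides to newly made DNA. TET2 and TET3 oxidize the methyl group and so start its removal, with alpha-ketoglutarate as a cofactor that IDH1 (in the cytosol) and IDH2 (in mitochondria) produce. ASXL1 is a chromatin regulator that activates the histone deubiquitinase BAP1, JAK2 is the kinase that relays signals of cytokine receptors, interferon-gamma's among them, and CBL is a ubiquitin ligase that ends signalling of receptor tyrosine kinases. In clonal hematopoiesis a mutated blood stem cell gives rise to an expanding share of blood cells, and TET2, DNMT3A, ASXL1 and JAK2 are among the genes most often mutated in it.

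Library totals ran from 3910680 to 12972505 counts, and levels are given as CPM, a gene's counts scaled to its library's total. Genes with any count numbered 13883 to 16132 in the early libraries and 17470 to 20760 in the late ones. Late CTL 1, the library with the smallest total, had 17470 of them. The part of this shift in the late rises of genes at low counts was not tested. The monocyte and macrophage markers (13 of 14 in the table, none at 0 in any group) summed to between 13300 and 13700 CPM in Early CTL, 10100 and 10700 in Early ACT, 6880 and 7450 in Late CTL and 6340 and 6470 CPM in Late ACT. CD14 lay between 1990 and 2820 CPM in the early groups and between 1380 and 1750 in the late ones. CD163 lay between 1080 and 1340 CPM in the early groups and between 502 and 607 in the late ones. Of the same markers MRC1 was at most 4.22 CPM and MARCO at most 1.3 CPM in any library. MSR1 did not share the fall of CD14 and CD163, with 23.9 to 32.8 CPM early and 27.6 to 40.1 late. Lists of other cell types moved with time as well. CD16 monocyte markers (4 of 6 in the table) summed to 277 to 380 CPM in the early libraries and 185 to 235 in the late ones. LILRB1 alone made 210 to 314 and 122 to 158 CPM of that, while TCF7L2 was at 24 to 34.2 and 26.1 to 37.1 CPM. FCGR3, the CD16 gene of that list, was at 27.4 to 49.8 CPM over the 12 libraries, and early and late ones overlapped. Neutrophil markers (7 of 9 in the table) summed to 636 to 755 CPM in the early libraries and 330 to 430 in the late ones. Of these sums CSF3R made 503 to 606 and 244 to 342 CPM, and CAMP made 102 to 146 and 63.8 to 87 CPM. Those of fibroblasts and endothelium (6 of 6, with COL1A1 and COL3A1 at 0 early) summed to 61.2 to 113 and 30.5 to 41 CPM. PECAM1 alone made 52.4 to 102 and 21.1 to 27.3 CPM of that, while VWF, CDH5 and PDGFRB were each at most 6.02 CPM in any library. Those of progenitors (4 of 5) summed to 0.55 to 1.42 CPM early and 3.08 to 4.44 CPM late. T cell markers (7 of 9) summed to 211 to 348 CPM, of which IL7R made 203 to 345 while CD3E was at or under 0.647 CPM. NK cell markers (5 of 7) summed to 39.2 to 60.8 CPM, B cell markers (6 of 6) to at most 8.95 and red cell markers (4 of 6, with HBA1 at 0) to at most 2.27 CPM in any library. The part of these lists in the members' changes was not tested. In bulk RNA, fewer cells of a type and less RNA per cell cannot be told apart. The Early ACT 1 library lay far from the other two of its group on principal component 2 (-61.5 against 1.49 and 1.79), so the fitted results below that use it are also given without it. The fitted fold changes use TMM scaling, whose factors were 0.879 to 0.909 in Early ACT and 1.08 to 1.10 in Early CTL, so a fitted change on early stimulation lies above the ratio of CPM values. Without these factors the median log2 change of all genes on early stimulation was -0.28 in place of 0.

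At 19 months unstimulated macrophages held more TET2, DNMT3A and UHRF1 RNA and less DNMT1, ASXL1, CBL and IDH2 RNA than at 4.5 months. That is 7 of 10 members called (edgeR quasi-likelihood test, Benjamini-Hochberg adjusted p under 0.05 over all genes), 3 higher and 4 lower, where 40.7% of all genes tested were called, 20.9% higher and 19.8% lower. In stimulated cells 5 members were called, with TET2, DNMT3A and JAK2 higher and IDH1 and IDH2 lower late, against 38.8% of all genes, 19.1% higher and 19.7% lower. Not all of these calls are in the authors' deposited tables of late against early. By symbol, those do not list DNMT3A, DNMT1 and ASXL1 for unstimulated cells, nor DNMT3A and IDH1 for stimulated cells. Stimulation at 4.5 months changed 4 members, with TET2, TET3 and UHRF1 higher and CBL lower, against 7.23% of all genes called in that comparison, 4.57% higher and 2.66% lower. No member was called in the difference of the stimulation responses at both times, where 1.41% of all genes were, 0.186% higher and 1.23% lower. At 19 months stimulation changed none of the 10 members and 0% of all genes by the edgeR quasi-likelihood test. At an unadjusted p under 0.05 of the same test that late comparison held 0 members and 527 genes, 4.46% of all genes tested. DESeq2 called 15 genes there and none of the members. The median log2 fold change of the members was -0.11 and 0.07 late against early in unstimulated and stimulated cells, against 0.02 and 0.05 over all genes tested. The share of all called genes that were higher depended on scaling, with 51.3% late in unstimulated cells (63.3% with upper-quartile factors), 49.3% in stimulated cells (61% with upper-quartile factors and 65.2% without factors), 63.3% on early stimulation (11.6% without factors) and 13.2% in the difference of responses (61.4% without factors). No label gives a sorting or sequencing date, so a batch that followed the time points cannot be told apart from time. The libraries of both groups did not overlap in CPM for 8 members late against early in unstimulated cells (53.2% of all genes) and for 5 in stimulated cells (52% of all genes), and for the same numbers on the TMM scale (52.8% and 50.4%). On early stimulation 4 members did not overlap in CPM (38.2% of all genes) and 7 on the TMM scale (25.7%), and on late stimulation 1 and 3 did not (11.7% and 11%).

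**Figure D1:**
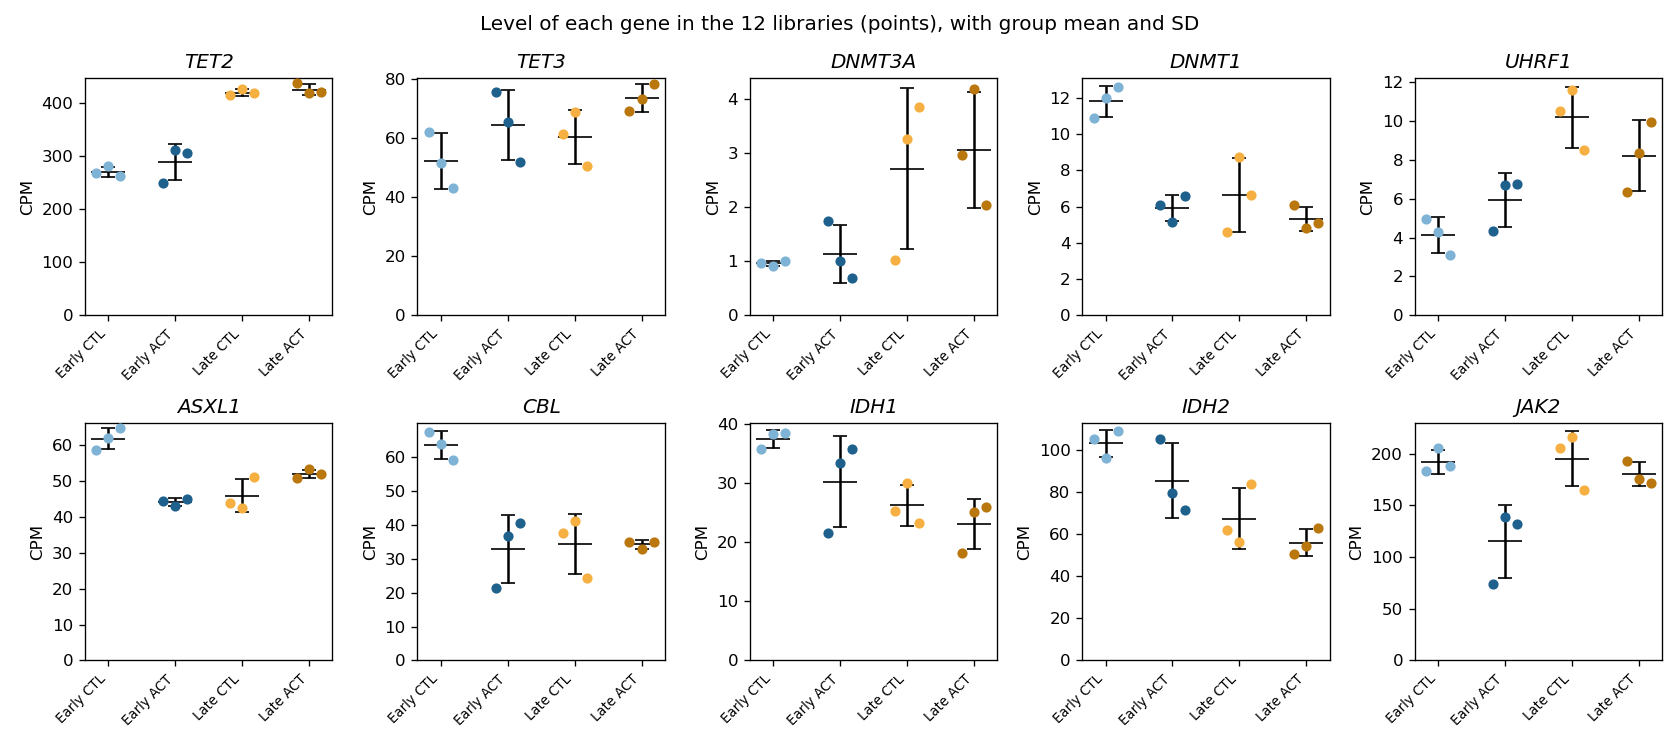
Level of each member in CPM (y axis, from 0) in the 4 groups (x axis), with 1 point for each of the 12 libraries and a black bar for the group mean with its SD (n = 3). TET2 lies at 415 CPM or more in every late library and at 312 or less in every early one, while in JAK2 and CBL the lowest library is Early ACT 1.

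**Figure D2:**
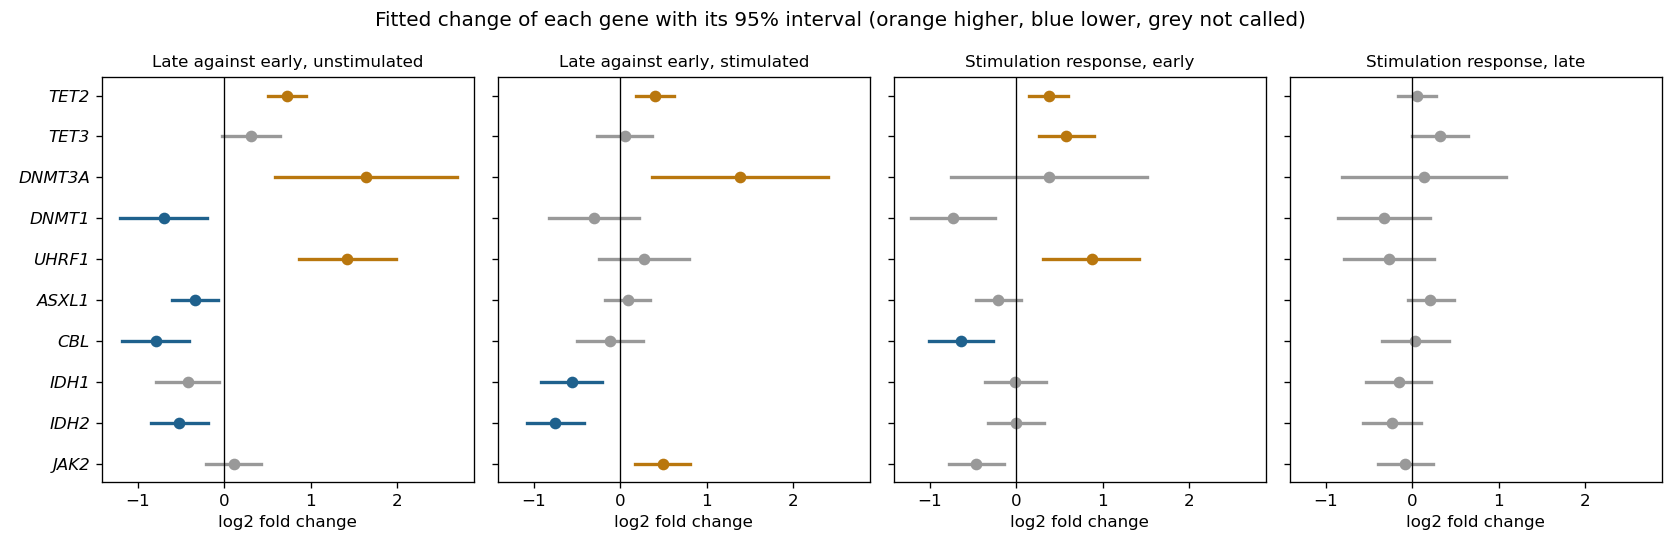
Fitted log2 fold change (x axis) of each member with its 95% interval in 4 comparisons, orange where called higher, blue where called lower and grey where not called. The 10 intervals of late stimulation are all grey, and the widest intervals belong to DNMT3A.

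TET2, the gene of the series title, read 269, 281 and 262 CPM in Early CTL, 250, 312 and 306 in Early ACT, 415, 427 and 418 in Late CTL and 437, 418 and 420 CPM in Late ACT. Every late library lay above every early one, and the groups of the same treatment did not overlap. The fitted level was 1.66-fold higher late in unstimulated cells (log2 0.73, 95% interval 0.51 to 0.95) and 1.32-fold higher in stimulated cells (0.40, interval 0.18 to 0.62, and 0.30 without Early ACT 1). Both calls held in all 14 alternatives run, with adjusted p of at most 0.000238 and 0.0279. A count per gene does not tell edited from unedited transcripts, so these values are the RNA of all TET2 alleles in the sorted cells. Between Late CTL and Late ACT the difference was 0.05 (interval -0.17 to 0.27), which did not pass. The authors' deposited table places TET2 (ENSMMUG00000017831) at positions 105087660 to 105219996 of chromosome 5 (build Mmul_8.0.1) and gives 0.74 ± 0.07 in unstimulated and 0.41 ± 0.13 in stimulated cells.

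On stimulation at 4.5 months TET2 rose 1.30-fold (0.38 ± 0.11 SE on the log2 scale, adjusted p = 0.0306). On the TMM scale the 3 Early CTL libraries held 245, 257 and 244 CPM and the Early ACT libraries 285, 343 and 338, which do not overlap, whereas the unscaled CPM values do. The early rise was 0.46 (adjusted p = 1.17e-05) without Early ACT 1 but 0.10 (adjusted p = 0.54) without scaling factors, and it was lost in 9 of 14 alternatives. The difference between the late and early responses was -0.32 (interval -0.64 to -0.01, adjusted p = 0.433), so it did not pass. Without Early ACT 1 the same difference was -0.41 and passed (adjusted p = 0.0114).

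TET3, the other TET gene of these cells, oxidizes methylated cytosine as TET2 does. It held 62.0, 51.4 and 43.1 CPM in Early CTL, 75.6, 65.5 and 52.0 in Early ACT, 61.4, 68.8 and 50.6 in Late CTL and 69.0, 73.0 and 78.3 CPM in Late ACT. Each early group spread widely, with SDs of 18.1% and 18.4% of the mean, and early and late libraries overlapped under both treatments. It rose on early stimulation by 0.58 ± 0.16 SE (1.49-fold, adjusted p = 0.0204, and 0.45 with adjusted p = 0.0137 without Early ACT 1). Without scaling factors the early change was 0.30 (adjusted p = 0.174), and leaving out Early CTL 2, Early CTL 3 or Early ACT 2 gave adjusted p of 0.0879, 0.159 and 0.0536. A fit of the compared groups alone gave 0.0917. On late stimulation it had 0.32 (interval 0.00 to 0.64, adjusted p = 0.998), and late against early it had 0.31 (interval -0.02 to 0.64, adjusted p = 0.122) in unstimulated and 0.05 (interval -0.27 to 0.37, and 0.17 without Early ACT 1) in stimulated cells. The late unstimulated value passed with upper-quartile factors (0.43, adjusted p = 0.0313) and in a fit of the compared groups alone (0.35, adjusted p = 0.0475). TET1, the third gene of the family, was too low to be tested, with at most 15 counts in any library and 0 in 5 of them.

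The balance of TET2 to TET3 was followed as a ratio of counts within each library. Each TET3 count came with 4.33, 5.46 and 6.09 TET2 counts in Early CTL and with 6.76, 6.21 and 8.25 in Late CTL, which do not overlap. In Early ACT the ratios were 3.31, 4.76 and 5.89, and in Late ACT 6.33, 5.72 and 5.36, which do overlap. An exact permutation test (two-sided) of the log2 ratios gave p = 0.1 in unstimulated cells, the smallest that 3 against 3 libraries allow, and p = 0.3 in stimulated cells (0.267 and 0.533 after adjustment over the 16 ratio tests). Lengths of the 2 transcripts were not used here, so the ratios compare libraries and not the amounts of the 2 RNAs.

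**Figure D3:**
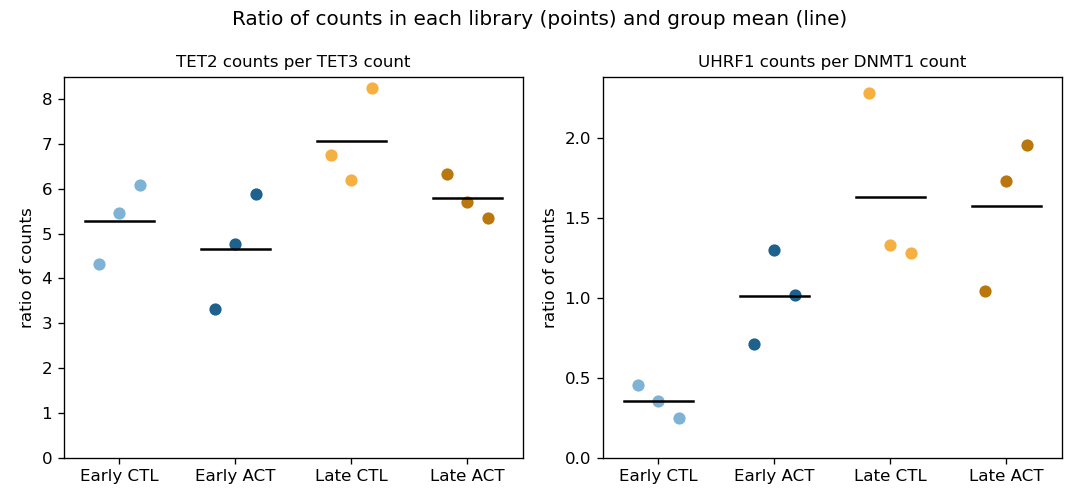
Ratio of TET2 to TET3 counts (left) and of UHRF1 to DNMT1 counts (right) in each library (points, y axis from 0) with the group mean (line). UHRF1 counts per DNMT1 count lie between 0.248 and 0.456 in Early CTL and at 0.714 or more in all other libraries.

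DNMT3A, which sets methylation on new sites, was the lowest of the members in counts. Its libraries held 6, 9 and 11 counts in Early CTL (0.961, 0.914 and 1.01 CPM), 8, 13 and 9 in Early ACT (1.74, 1.00 and 0.696 CPM), 4, 24 and 25 in Late CTL (1.02, 3.27 and 3.86 CPM) and 23, 32 and 19 in Late ACT (2.97, 4.18 and 2.05 CPM). Late CTL 1 lies beside the early unstimulated libraries, just above the highest of them, and its 4 counts allow 0.279 to 2.62 CPM (exact Poisson 95% interval, counting error only). The other late libraries lie above all early ones. The late level was higher by 1.64 ± 0.51 SE in unstimulated cells (adjusted p = 0.0122) and by 1.39 ± 0.49 in stimulated cells (adjusted p = 0.0279). Leaving out Late CTL 2 gave an adjusted p of 0.0508 in unstimulated cells and leaving out Late CTL 3 gave 0.0781, which ended the call. In a fit of the unstimulated groups alone DNMT3A was not kept by the low-count filter, so 13 alternatives gave a value for that comparison. The stimulated call was lost without Early ACT 2, Early ACT 3, Late ACT 1 or Late ACT 2 (adjusted p from 0.0619 to 0.138) and was 1.67 (adjusted p = 0.0118) without Early ACT 1. Among the 4909 tested genes with a mean of 1 to 10 CPM, 18.8% were higher and 10.9% lower late in unstimulated cells, and genes under 1 CPM were higher in 65.2%, and the part of that rise in the DNMT3A values was not tested. Stimulation gave 0.38 (interval -0.75 to 1.51, and 0.08 without Early ACT 1) early and 0.13 (interval -0.81 to 1.08) late, intervals too wide to show a difference of 1.5-fold at this depth. DNMT3B, the other writer of new methylation, had at most 13 counts in a library and was not tested. DNMT3L, a partner of DNMT3A with no catalytic activity of its own, was higher late in unstimulated cells (0.974 ± 0.318 to 3.35 ± 1.83 CPM, SD, n = 3, adjusted p = 0.00154) and on early stimulation (2.42 ± 0.758 CPM, adjusted p = 0.0454), though the early stimulation call was lost without Early ACT 1 (1.30, adjusted p = 0.0693).

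DNMT1, the maintenance methyltransferase, was highest in early unstimulated cells. Its levels were 10.9, 12.0 and 12.6 CPM in Early CTL, 6.08, 5.16 and 6.57 in Early ACT, 4.6, 8.71 and 6.63 in Late CTL and 6.06, 4.83 and 5.07 CPM in Late ACT. The lowest Early CTL library lay above each of the other 9 libraries, and these overlapped between groups. It fell late in unstimulated cells by 0.70 on the log2 scale (1.63-fold, interval -1.20 to -0.20, adjusted p = 0.0234). The call was lost with upper-quartile factors and without Early CTL 2, Early CTL 3, Late CTL 1 or Late CTL 3 (adjusted p from 0.0536 to 0.0944). On early stimulation its value was -0.73 ± 0.24 SE with no overlap between the groups, but it did not pass (adjusted p = 0.0648). It passed there without Early ACT 1 (-0.75, adjusted p = 0.0424) and without scaling factors (adjusted p = 0.00495). In stimulated cells the late difference was -0.30 (interval -0.82 to 0.22, adjusted p = 0.361), and also -0.30 without Early ACT 1.

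UHRF1, which reads half-methylated DNA and brings DNMT1 to it, went the other way. It held 4.96, 4.27 and 3.12 CPM in Early CTL, 4.35, 6.71 and 6.73 in Early ACT, 10.5, 11.6 and 8.48 in Late CTL and 6.32, 8.36 and 9.92 CPM in Late ACT. In unstimulated cells the lowest late library was above the highest early one, whereas stimulated groups overlapped. UHRF1 rose 2.68-fold late in unstimulated cells (log2 1.42 ± 0.27 SE, adjusted p = 0.000177), a call kept in all 14 alternatives with adjusted p of at most 0.00301. In stimulated cells the late difference was 0.28 (interval -0.24 to 0.80, adjusted p = 0.397, and 0.14 without Early ACT 1). The authors' deposited table lists UHRF1 (ENSMMUG00000012705, chromosome 19, 5063136 to 5119811, build Mmul_8.0.1) for unstimulated cells, at 1.43 ± 0.35, and not for stimulated cells.

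UHRF1 also rose on early stimulation, by 0.87 ± 0.27 SE, at an adjusted p of 0.0493 that 10 of 14 alternatives moved past the threshold. Without Early ACT 1 the rise was 1.00 (adjusted p = 0.00982). On late stimulation its value was -0.27 (interval -0.79 to 0.25). The difference between both responses was -1.14 ± 0.37 SE (adjusted p = 0.162), and it passed only without Early ACT 1 (-1.27, adjusted p = 0.0324) among its 19 alternatives. UHRF1 and DNMT1 act as a pair, and late unstimulated cells held more of the first and less of the second. There were 0.456, 0.356 and 0.248 UHRF1 counts for each DNMT1 count in Early CTL and 2.28, 1.33 and 1.28 in Late CTL, a difference of 2.20 in the mean log2 ratio. Early ACT libraries held 0.714, 1.30 and 1.02 and Late ACT libraries 1.04, 1.73 and 1.96. The exact permutation test gave p = 0.1 for Late CTL and for Early ACT against Early CTL (0.267 adjusted), the smallest p that this design allows. Both genes are known for their link to DNA replication. Of 19 tested cell cycle and replication genes 10 were higher and none lower late, in unstimulated and in stimulated cells alike (10 also without Early ACT 1), where 20.9% and 19.1% of all genes were higher. Of the 19, 3 had a mean under 1 CPM, a level at which 65.2% and 59.7% of all genes were higher late, and 12 had a mean of 1 to 10 CPM, where 18.8% and 18.7% were. Called higher were 2 of the 3 and 6 of the 12 in unstimulated cells, and 1 of the 3 and 8 of the 12 in stimulated cells. PCNA, the replication clamp, was at 23.5 ± 2.73 CPM in Early CTL and 37.5 ± 0.177 in Late CTL (adjusted p = 0.000368). MKI67, a marker of dividing cells, held 0 to 10 counts in the early libraries (0 to 0.917 CPM) and 4 to 14 in the late ones (0.971 to 1.90 CPM). It was picked after its values were seen, so these values are no evidence about cell division. The part of cell division in the UHRF1 and DNMT1 values was not tested.

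ASXL1 RNA stood at 58.8, 62.2 and 64.8 CPM in Early CTL, 44.5, 43.0 and 45 in Early ACT, 44.0, 42.6 and 51.2 in Late CTL and 50.9, 53.3 and 52.0 CPM in Late ACT. Early CTL was above the other groups in all of its libraries, and the early and late groups of either treatment did not overlap. It fell late in unstimulated cells by 0.34 on the log2 scale (1.26-fold, interval -0.60 to -0.07, adjusted p = 0.0382). In stimulated cells the late CPM values were the higher ones, but the fitted change was 0.09 (interval -0.17 to 0.35, adjusted p = 0.613, and 0.09 without Early ACT 1). The unstimulated call did not hold in 7 of 14 alternatives, with adjusted p from 0.0504 with the replicate block to 0.202 with upper-quartile factors. On early stimulation the fitted value was -0.21 (interval -0.47 to 0.05, adjusted p = 0.34, and -0.23 without Early ACT 1), and without scaling factors it was -0.49 (adjusted p = 0.00849). On late stimulation it was 0.21 (interval -0.05 to 0.48), and the difference between both responses was 0.43 ± 0.18 SE (unadjusted p = 0.0268, adjusted p = 0.36, and 0.45 with 0.122 without Early ACT 1).

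Other genes of the ASXL1 and BAP1 complex were lower late as well. Of 11 tested, 7 fell in unstimulated and 5 in stimulated cells and none rose, with medians of -0.47 and -0.46 against 0.02 and 0.05 over all genes. Of all genes tested 19.8% and 19.7% were lower in these comparisons. Of the 11, 8 had a mean of 10 to 100 CPM, and 6 and 4 of these were lower, where 28.2% and 27.6% of all genes were. BAP1, the deubiquitinase that ASXL1 activates, went from 69.9 ± 4.68 CPM in Early CTL to 41.3 ± 3.41 in Late CTL (log2 -0.67 ± 0.14 SE, adjusted p = 0.000438). HCFC1, a large adaptor bound by BAP1, had -0.59 (adjusted p = 0.00653), and the DNA-binding partners FOXK1 and FOXK2 had -0.97 and -0.65 (adjusted p = 0.00354 and 0.00119). In stimulated cells FOXK2, HCFC1 and BAP1 had -0.69, -0.68 and -0.48. Without Early ACT 1 these were -0.52, -0.66 and -0.48, and the stimulated count was also 5.

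JAK2 was called late against early in stimulated cells and not in unstimulated cells, and the difference between both did not pass. It held 183, 205 and 188 CPM in Early CTL, 74.3, 139 and 132 in Early ACT, 205, 216 and 165 in Late CTL and 193, 175 and 172 CPM in Late ACT. The 3 Early ACT libraries were the lowest of all, with Early ACT 1 far under the other two. Late ACT was above Early ACT by 0.49 ± 0.16 SE (1.40-fold, adjusted p = 0.0154). That value was 0.26 ± 0.10 (adjusted p = 0.0303) without Early ACT 1, and the call was lost without Late ACT 1 (0.42, adjusted p = 0.0803) and in a fit of the compared groups alone (0.51, adjusted p = 0.0614). The authors' deposited table gives 0.50 ± 0.20 (adjusted p = 0.0466) for JAK2 (ENSMMUG00000014558) in stimulated cells, on chromosome 15 from 79366323 to 79520054. In unstimulated cells the late difference was 0.11 (interval -0.21 to 0.43, adjusted p = 0.588). On early stimulation JAK2 had -0.46 (interval -0.78 to -0.14), which did not pass (adjusted p = 0.0774, and -0.24 with 0.0875 without Early ACT 1) although the groups did not overlap, as for 38.2% of all genes there. It passed without scaling factors (-0.73, adjusted p = 0.00323), without the low-count filter (-0.46, adjusted p = 0.0201) and without Early ACT 2 (-0.60, adjusted p = 0.0311). The late response was -0.08 (interval -0.40 to 0.24), and the difference between the responses, 0.37, did not pass (adjusted p = 0.567, and 0.16 with 0.63 without Early ACT 1).

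Of 21 tested genes of JAK-STAT signalling and its brakes 13 were lower late in unstimulated and 15 in stimulated cells, and none was higher, with medians of -0.47 and -0.57. Of all genes tested 19.8% and 19.7% were lower, with medians of 0.02 and 0.05. Of the 21, 13 had a mean over 100 CPM, and 7 and 9 of these were lower, where 30% and 40.4% of all genes were. At 10 to 100 CPM 6 of 6 were lower in both comparisons, where 28.2% and 27.6% of all genes were. PTPN6, a phosphatase that damps JAK signals, was at 138 ± 8.03 CPM in Early CTL and 40.1 ± 3.73 in Late CTL (adjusted p = 5.88e-08). SOCS1, an inhibitor of JAK kinases, had -1.01 (adjusted p = 1.86e-05). The count for stimulated cells was 15 without Early ACT 1 too.

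CBL stood at 67.4, 63.7 and 59.1 CPM in Early CTL, 21.5, 36.8 and 40.4 in Early ACT, 37.6, 41.1 and 24.2 in Late CTL and 34.8, 32.8 and 34.9 CPM in Late ACT. Early CTL was above every other library, and the other groups overlapped. In unstimulated cells it fell late 1.74-fold (log2 -0.79 ± 0.18 SE, adjusted p = 0.00128), and the call held in all 14 alternatives with adjusted p of at most 0.0132. The authors' deposited table gives -0.78 ± 0.18 for CBL (ENSMMUG00000004761), on chromosome 14 from 112066034 to 112171993. In stimulated cells the late difference was -0.12 (interval -0.50 to 0.26, adjusted p = 0.631, and -0.33 with 0.0612 without Early ACT 1). CBL fell on early stimulation by 0.64 on the log2 scale (1.56-fold, adjusted p = 0.0274, and -0.45 with 0.0226 without Early ACT 1). That call was lost without Early CTL 1, 2 or 3 (adjusted p = 0.102, 0.0861 and 0.0622) and in a fit of the compared groups alone (0.0876). The late response was 0.03 (interval -0.35 to 0.42), and the difference of 0.67 ± 0.26 SE between the responses did not pass (adjusted p = 0.285, and 0.48 with 0.18 without Early ACT 1).

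CBLB, a ubiquitin ligase of the same family, rose late under both treatments. It was at 13.5 ± 1.64 CPM in Early CTL and 25.1 ± 0.747 in Late CTL (log2 1.00 ± 0.19 SE, adjusted p = 0.000139), and at 9.80 ± 1.39 and 26.8 ± 6.2 CPM in Early and Late ACT (1.28, adjusted p = 8.2e-06, and 1.18 without Early ACT 1). Among the 16 tested relatives and partners of CBL 2 rose and 5 fell late under either treatment, where 20.9% and 19.1% of all genes rose and 19.8% and 19.7% fell. CSF1R, the macrophage growth factor receptor whose signalling CBL ends, was at 315 ± 6.44 CPM in Early CTL, 151 ± 27.5 in Early ACT, 92.7 ± 6.62 in Late CTL and 71.2 ± 9.90 in Late ACT. Its level was lower late in unstimulated cells (-1.67, adjusted p = 8.45e-10) and on early stimulation (-0.79, adjusted p = 0.000237, and -0.96 without Early ACT 1). Without Early ACT 1 the stimulated counts were 1 higher and 8 lower.

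IDH2, the mitochondrial enzyme, read 105, 96.1 and 109 CPM in Early CTL, 105, 79.4 and 71.5 in Early ACT, 61.9, 56.3 and 83.9 in Late CTL and 50.4, 54.6 and 62.9 CPM in Late ACT. All late libraries lay under the early ones of the same treatment, and Early ACT 1 and Late CTL 3 were the high ones of their groups. IDH2 fell late by 0.52 on the log2 scale in unstimulated cells (1.43-fold, adjusted p = 0.0108) and by 0.75 in stimulated cells (1.68-fold, adjusted p = 0.000646). The stimulated call held in all 14 alternatives (-0.58 with adjusted p = 0.000212 without Early ACT 1). The unstimulated one was lost with upper-quartile factors (-0.39, adjusted p = 0.0545) and without Late CTL 2 (-0.40, adjusted p = 0.0777). The authors' deposited table gives -0.51 ± 0.15 and -0.75 ± 0.19 for IDH2 (ENSMMUG00000014833), on chromosome 7 from 68132268 to 68149527. Stimulation gave 0.00 (interval -0.33 to 0.32, and -0.19 without Early ACT 1) early and -0.24 (interval -0.57 to 0.10) late, neither past the test.

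IDH1, the cytosolic enzyme, held 35.7, 38.3 and 38.4 CPM in Early CTL, 21.5, 33.4 and 35.8 in Early ACT, 25.3, 29.9 and 23.3 in Late CTL and 18.2, 25 and 25.9 CPM in Late ACT. Unstimulated groups did not overlap, and in stimulated cells only Early ACT 1 fell among the late libraries. IDH1 fell late in stimulated cells by 0.56 on the log2 scale (1.48-fold, adjusted p = 0.0126, and -0.74 with 8.04e-05 without Early ACT 1). The call was lost without Early ACT 3 or Late ACT 1 (adjusted p = 0.0667 and 0.0831), without scaling factors (0.0661) and in a fit of the compared groups alone (0.059). In unstimulated cells the value was -0.42 (interval -0.79 to -0.06), just outside the threshold (adjusted p = 0.058), and 6 of 14 alternatives brought it inside. On stimulation it had -0.01 (interval -0.36 to 0.34, and 0.14 without Early ACT 1) early and -0.15 (interval -0.53 to 0.22) late. IDH1 counts per IDH2 count ranged from 0.204 in Early ACT 1 to 0.531 in Late CTL 2, and all 4 comparisons of this ratio overlapped.

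Of 23 tested genes of isocitrate and alpha-ketoglutarate metabolism 8 were lower and 3 higher late in unstimulated cells, and 10 lower and 3 higher in stimulated cells (11 and 2 without Early ACT 1). Of all genes tested 19.8% were lower and 20.9% higher in unstimulated cells, and 19.7% and 19.1% in stimulated cells. Of the 23, 14 had a mean of 10 to 100 CPM, and 5 of these were lower in either comparison. At that level 28.2% and 27.6% of all genes were lower. D2HGDH, which turns the D form of hydroxyglutarate back into alpha-ketoglutarate, was at 13.8 ± 2.37 CPM in Early CTL and 3.29 ± 0.918 in Late CTL (log2 -1.93 ± 0.27 SE, adjusted p = 3.19e-06). It was at 9.68 ± 0.719 and 3.04 ± 0.605 CPM in Early and Late ACT (-1.81, adjusted p = 7.31e-06, and -1.78 without Early ACT 1). GLUD1, which makes alpha-ketoglutarate from glutamate, had -1.07 (adjusted p = 9.88e-06), and FH, the fumarate hydratase, rose from 72.2 ± 6.74 to 117 ± 8.60 CPM (0.78, adjusted p = 1.73e-05). ACOD1, which makes itaconate in stimulated macrophages, was at 4840 ± 229 CPM in Early CTL, 7980 ± 54.0 in Early ACT, 5160 ± 436 in Late CTL and 5850 ± 103 in Late ACT. The difference of its 2 responses passed (-0.79 ± 0.14 SE, adjusted p = 0.0023, and -0.77 without Early ACT 1).

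**Figure D4:**
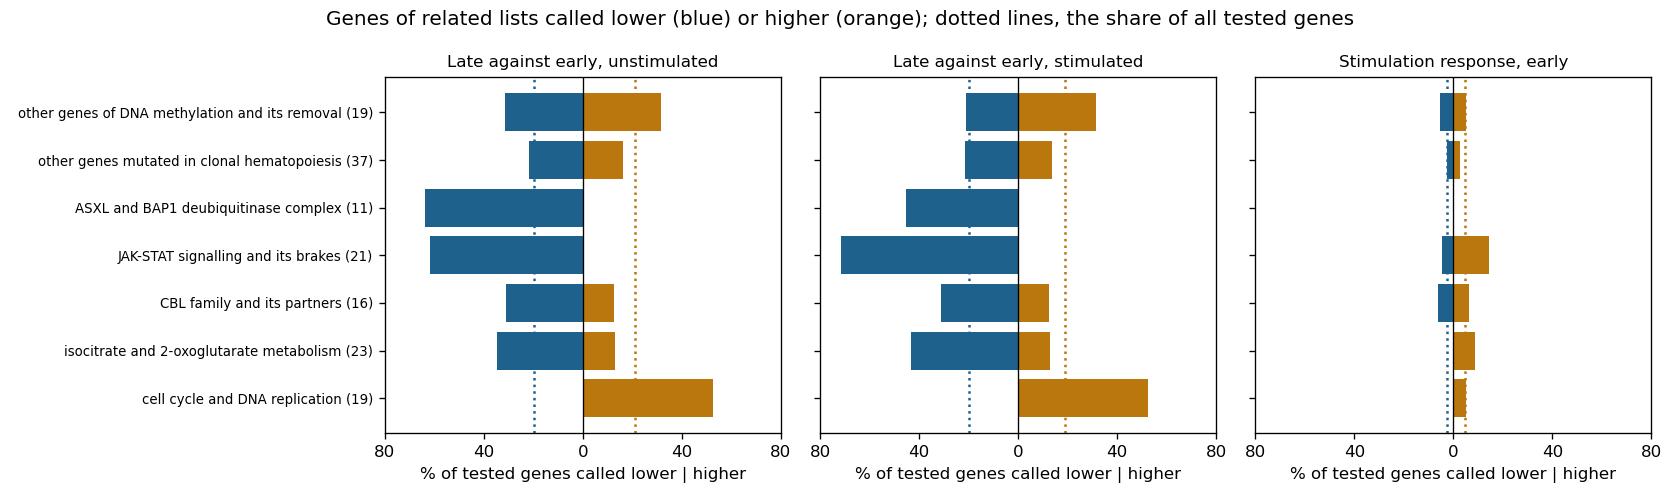
Share of the tested genes of each related list (number in brackets, members left out) called lower (blue, to the left) or higher (orange, to the right) in 3 comparisons, with dotted lines at the share of all genes tested. The complex of ASXL1 and BAP1 and the JAK-STAT list have bars to the left only in both comparisons of time, and the cell cycle list to the right only.

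Further genes of DNA methylation did not share a direction. Of 19 tested 6 rose and 6 fell late in unstimulated cells, and 6 rose and 4 fell in stimulated cells. Of all genes tested 20.9% rose and 19.8% fell in the first comparison, and 19.1% and 19.7% in the second. UHRF2, a relative of UHRF1, was at 119 ± 4.39 CPM in Early CTL and 183 ± 9.00 in Late CTL (0.71, adjusted p = 0.00045). OGT, the sugar transferase that binds TET2, was at 312 ± 21.4 and 422 ± 16.6 CPM (0.53, adjusted p = 0.000489). MBD3, a subunit of the NuRD chromatin complex, was at 30.9 ± 3.14 and 13.7 ± 1.05 CPM (-1.06, adjusted p = 7.52e-05). On early stimulation DNMT3L rose and CXXC5 fell (-0.74, adjusted p = 0.019, and -0.87 without Early ACT 1) out of the same 19 (1 rose and 3 fell without Early ACT 1). Of all genes tested 4.57% rose and 2.66% fell there with all 12 libraries.

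Other genes mutated in clonal hematopoiesis also split, with 6 higher and 8 lower of 37 tested late in unstimulated cells and 5 higher and 8 lower in stimulated cells (3 and 9 without Early ACT 1). Of all genes tested 20.9% were higher and 19.8% lower in unstimulated cells, and 19.1% and 19.7% in stimulated cells, so these counts do not set the list apart. The corepressor gene BCOR was at 46.9 ± 1.85 CPM in Early CTL, 22.7 ± 5.78 in Early ACT and 16.8 ± 1.89 in Late CTL. It fell late in unstimulated cells (-1.40, adjusted p = 3.98e-06) and on early stimulation (-0.81, adjusted p = 0.0065, and -1.02 without Early ACT 1). The transcription factor gene CUX1 fell late (-0.85 unstimulated, -0.78 stimulated), and the splicing factor gene SRSF2 rose (0.49 and 0.54). Without Early ACT 1 the stimulated values were -0.69 for CUX1 and 0.39 for SRSF2.

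Among 5479 named genes with a mean of 10 CPM or more, those whose log2 levels followed TET2 most closely over the 12 libraries were HSPA9 (r = 0.994), TRMT5 (0.993) and ATMIN (0.99). HSPA9, a mitochondrial chaperone, was at 336.3 ± 11.1 CPM in Early CTL, 364 ± 45.1 in Early ACT, 513.9 ± 11.1 in Late CTL and 523.6 ± 8.17 CPM in Late ACT. The genes closest to JAK2 were RNF103 (0.986), CANX (0.972) and NAE1 (0.966), and those closest to CBL were PIAS3 (0.961), SNX10 (0.946) and UBP1 (0.945). IDH2 was followed most closely by PTAFR and HLA-DMA (both 0.975) and ATP6V0D1 (0.972), UHRF1 by TAF4B (0.955), MTRR (0.954) and EIF1AY (0.946), and DNMT3A by TMEM230 (0.948), NOP16 (0.936) and EIF3M (0.899). DNMT1 was followed by TFEB (0.905), CYB5R1 (0.897) and CD9 (0.89), and IDH1 by OXSR1 (0.915), PTPN1 (0.91) and RNF7 (0.904). TET3 was followed by B3GALT6 (0.91), URB1 (0.897) and WDFY4 (0.881), and ASXL1, with the lowest values, by HPS6 (0.86), ACTR5 (0.831) and GTF3A (0.815). These Pearson correlations describe libraries that fall into the 2 times, share their depth and scaling, and include Early ACT 1, so no p is given.

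**Figure D5:**
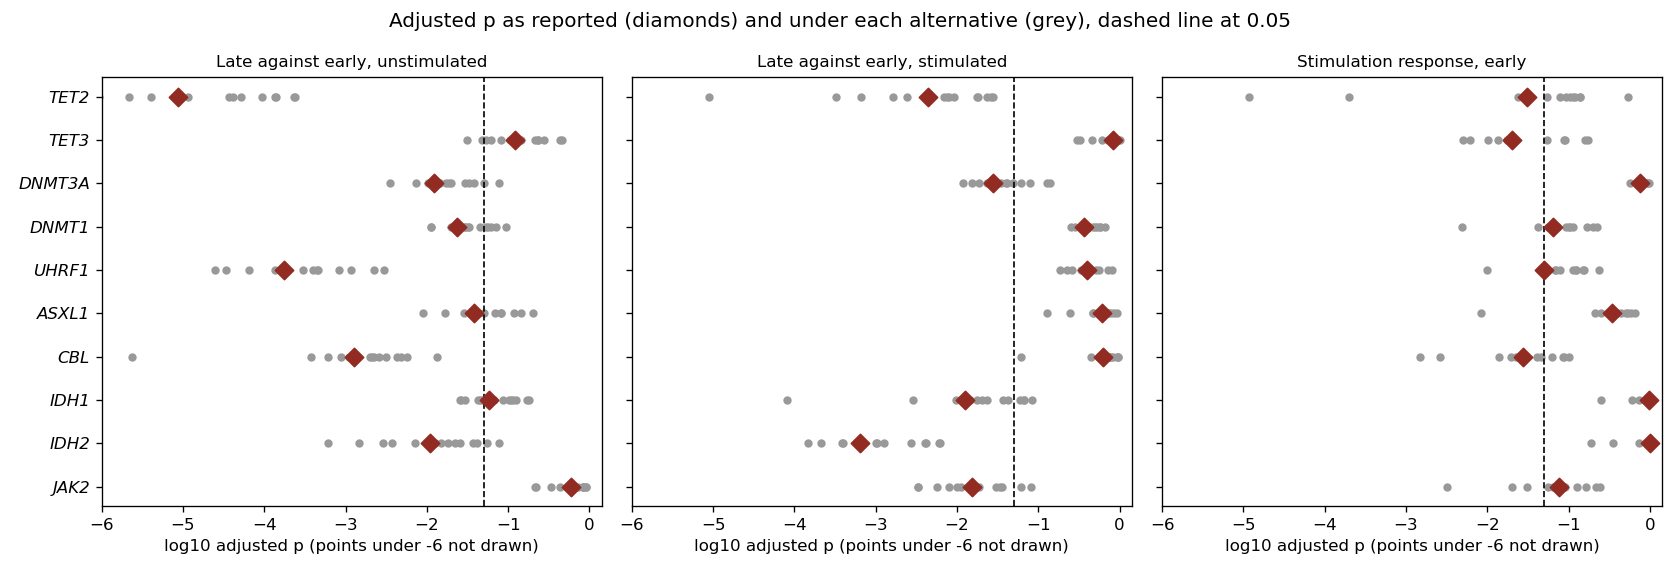
Log10 of the adjusted p (x axis) of each member in 3 comparisons, as reported (red diamonds) and under each alternative (grey points), with a dashed line at the threshold of 0.05. All points of TET2, UHRF1 and CBL lie left of the line late against early in unstimulated cells, as do those of TET2 and IDH2 in stimulated cells, while on early stimulation each member called has points on both sides.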

How the data were processed

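Libraries were made with a SMART-Seq V4 kit and Nextera XT, per the labels, a route that keeps no strand. The authors deposited a table of raw counts per gene and library (build Mmul_8.0.1, bcl2fastq, per the submitters' processing notes). Which aligner and counter were used is not given in the sources used here. The authors also deposited 2 tables of late against early comparisons, with a log2 fold change and its standard error, a mean normalized signal, a test score, p-values and adjusted p-values, listing only genes with an adjusted p under 0.05. The tool is not stated.

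Counts were tested with edgeR 4.0.16 in R 4.3.3 (quasi-likelihood F test, robust, TMM scaling, filterByExpr by group, a coefficient per group over all 12 libraries). Adjustment (Benjamini-Hochberg) covered the 11826 genes tested, with a threshold of 0.05. CPM uses library totals. DESeq2 1.42.0, other scalings and filters, a replicate block and leaving out each library were tried as alternatives. Of 32386 genes 15685 had a unique name, and the rest held 16.8% of the counts. All 10 members are named, with up to 4 called genes per list by smallest p, and the 3 genes most like each member in pattern (log2 CPM, prior count 2). The scripts were tested on simulated data. There a 1.5-fold rise was called for 24% to 38% of the changed genes, depending on the comparison, and a 2-fold rise for 66% to 82%. A small change that did not pass is therefore not shown to be absent. Replicates of a group differed by more than counting noise. The members and lists were chosen with earlier results of these data known. Some genes of these lists are not reported here.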

Additional observations from a re-analysis of the deposited data

Results flagged for a closer look

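ASXL1 is the member whose libraries moved in opposite directions under the 2 treatments, lower in all Late CTL libraries than in any Early CTL library and higher in all Late ACT libraries than in any Early ACT library in CPM. The fitted change was -0.34 in unstimulated and 0.09 in stimulated cells, and the second did not pass. The difference of both, 0.43, was tested as the difference of stimulation responses and did not pass (edgeR quasi-likelihood test, adjusted p = 0.36, and 0.122 without Early ACT 1).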

How the results depend on the processing

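Of the 16 calls of members over all comparisons, 5 were kept in every alternative (TET2 late under both treatments, UHRF1 and CBL late in unstimulated cells, IDH2 late in stimulated cells) and 11 were lost in at least 1. Of 34 results that did not pass, 7 passed in some alternative. The number of members called late against early in stimulated cells was 5, with 2 to 5 when 1 library was left out and 3 in a fit of the compared groups alone. For early stimulation it was 4, with 0 to 5 when 1 library was left out and 0 in a fit of the compared groups alone. In the difference of responses it was 0, with 0 to 2 when 1 library was left out. Without scaling factors early stimulation called 0 members higher and 4 lower, in place of 3 and 1. Replicate numbers did not pair the libraries, since deviations of same-numbered libraries correlated at -0.086 to 0.097 and 3 of 12 libraries correlated best with their own number. With the replicate block 2 members were called on early stimulation. Early stimulation of TET2 and UHRF1 was lost with it (adjusted p = 0.0544 and 0.0787). Apart from the calls named in the report, it brought IDH1 late in unstimulated cells inside the threshold (adjusted p = 0.0471).

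Changes of sign were limited to results that did not pass. Late against early in stimulated cells, TET3 had 0 without the low-count filter, -0.01 without Late ACT 3 and -0.11 to 0.17 over all left-out libraries, and CBL had 0.03 without scaling factors and -0.33 to 0.02 over left-out libraries. On early stimulation IDH2 had 0 with RLE factors, with DESeq2 and with the replicate block, 0.01 with upper-quartile factors, 0.04 without Early CTL 3, 0.05 without Early ACT 2 and -0.19 to 0.12 over all left-out libraries, and IDH1 had 0.01 without Early CTL 3 and 0.14 without Early ACT 1. On late stimulation CBL had 0 without scaling factors and -0.17 to 0.19 over left-out libraries, and DNMT3A had -0.14 without Late ACT 2 and -0.18 to 0.44 over all left-out libraries. In the difference of responses IDH1 had 0.10 and IDH2 0.02 without scaling factors, and DNMT3A had 0.05 without Early ACT 1 or Late CTL 3, with -0.56 to 0.05 over all left-out libraries. The cause was not tested. Over all genes, early stimulation called 855 genes, with 2413 without scaling factors, 503 in a fit of the compared groups alone and 1554 without Early ACT 1, and the difference of responses called 167, with 312 by DESeq2 and 546 without Early ACT 1. Counts of 4 to 32 per library limit DNMT3A.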
